A study of Mus musculus with 6 samples.

Results

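The subject is the shared promoter of the imprinted genes Peg3 and Usp29 on mouse chromosome 7 and the DNA on either side of it, from the neighbouring gene Zim1 into the body of Usp29, in build mm39. A CpG belonged to it when, after its strands were added together, it had at least 10 reads in at least 2 samples of each genotype. Of the 54 CpGs listed there in any library, 28 passed, from 6699436 to 6757386, out of 881438 that passed in the whole series. The data came from reduced representation bisulfite sequencing (RRBS) of neocortex at postnatal day 5. In this assay MspI cuts DNA at CCGG and bisulfite makes unmethylated cytosines read as thymine, so the methylation level of a CpG is the percent of its reads that still show cytosine. The samples were 3 labelled Chd8+/-, with 1 mutant copy of Chd8, which encodes a chromatin remodeller, and 3 wild-type (WT) ones. The design of the Chd8 allele, the strain and the sex of the mice, and whether each sample is 1 animal, are not given in the sources used here, so a p-value here speaks only of how these libraries vary, which may be partly technical.

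Peg3 encodes a zinc finger protein and Usp29, which starts beside it and runs the other way, a member of the ubiquitin-specific protease family. Both are expressed from the copy inherited from the father. The copy inherited from the mother is methylated over their common promoter in the egg and keeps that mark in the body, and this differentially methylated region controls a cluster of imprinted genes that also holds Zim1, a zinc finger gene expressed from the maternal copy. The deposited tables do not separate the parental copies or the cell types of the tissue. Where both parental copies are read together, such a region is read at an intermediate level, between the unmethylated state usual for CpG-rich promoters and the methylated state usual for other DNA.

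The promoter sequences are shown because their CpGs tie the measured positions to the genes. They are RefSeq's, of build GRCm38.p6, with 250 bases before and 50 after each start, and capitals mark the CpGs listed in at least 1 library. Usp29 is chr7:6730333-6730632 on the plus strand, Peg3 is chr7:6730370-6730669 on the minus strand and Zim1 is chr7:6696383-6696682 on the minus strand.
Usp29: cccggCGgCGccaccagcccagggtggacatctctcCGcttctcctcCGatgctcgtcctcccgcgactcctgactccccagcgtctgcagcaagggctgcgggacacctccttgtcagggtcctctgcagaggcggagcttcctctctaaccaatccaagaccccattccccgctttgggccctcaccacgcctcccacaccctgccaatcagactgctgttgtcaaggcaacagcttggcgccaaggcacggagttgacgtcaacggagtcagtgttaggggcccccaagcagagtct
Peg3: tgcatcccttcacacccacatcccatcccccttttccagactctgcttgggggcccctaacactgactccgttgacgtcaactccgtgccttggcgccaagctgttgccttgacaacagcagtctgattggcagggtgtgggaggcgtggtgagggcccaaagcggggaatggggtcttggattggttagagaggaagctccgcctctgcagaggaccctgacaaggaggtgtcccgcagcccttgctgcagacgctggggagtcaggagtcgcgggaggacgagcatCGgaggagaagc
Zim1: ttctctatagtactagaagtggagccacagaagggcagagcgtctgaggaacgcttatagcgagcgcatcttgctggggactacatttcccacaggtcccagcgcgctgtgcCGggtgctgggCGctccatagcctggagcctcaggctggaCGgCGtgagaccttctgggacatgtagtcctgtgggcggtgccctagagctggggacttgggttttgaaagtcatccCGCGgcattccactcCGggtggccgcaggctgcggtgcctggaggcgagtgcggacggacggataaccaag

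These coordinates are of another build than the methylation tables, so the sequences were placed on mm39 by the spacing of their CpGs alone. Each of 65001 positions was tried as the first base. For Usp29 a single position, 6733332, put at least 3 listed CpGs on a CG of the sequence with none off it, with 4 of 4 matching. For Zim1 a single position, 6699382, did so with 7 of 7 matching. The Peg3 sequence shares 263 bases with that of Usp29 read on the other strand and was placed through it. By this placement Peg3 starts at 6733418, Usp29 at 6733582 and Zim1 at 6699431, so the Peg3 and Usp29 starts lie 164 bp apart.

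The Usp29 sequence holds 17 CpGs and 1 CCGG, the cutting site of MspI. The Peg3 sequence holds 13 CpGs and 0 CCGG, and the Zim1 sequence 20 CpGs and 2 CCGG, while 52.8% of the 32851 promoters in the table hold at least 1 CCGG. The motif AAGATGG, the core of the site bound by the zinc finger factor YY1, which binds the Peg3 differentially methylated region, was searched on both strands and was found in none of these 3 sequences and in 6.34% of all promoters. The windows end 50 bases into each gene, and the DNA beyond was not searched.

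Methylation along the interval fell into 3 states. The 7 CpGs that matched the Zim1 promoter averaged between 0% and 3.85% over the samples. The 8 CpGs of the Peg3 and Usp29 promoter interval, taken as the 5 kb from about 3 kb inside Peg3 to about 2 kb inside Usp29, averaged between 32.1% and 62.4%. Among the other members, 12 stood above 80% and 1, at position 6747463 far inside Usp29, stood at 37.4%. In all, 9 of the 28 members lay between 30% and 70%, the range called intermediate here, compared with 12.5% of the 864621 autosomal CpGs that pass the same rule.

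**Figure D1:**
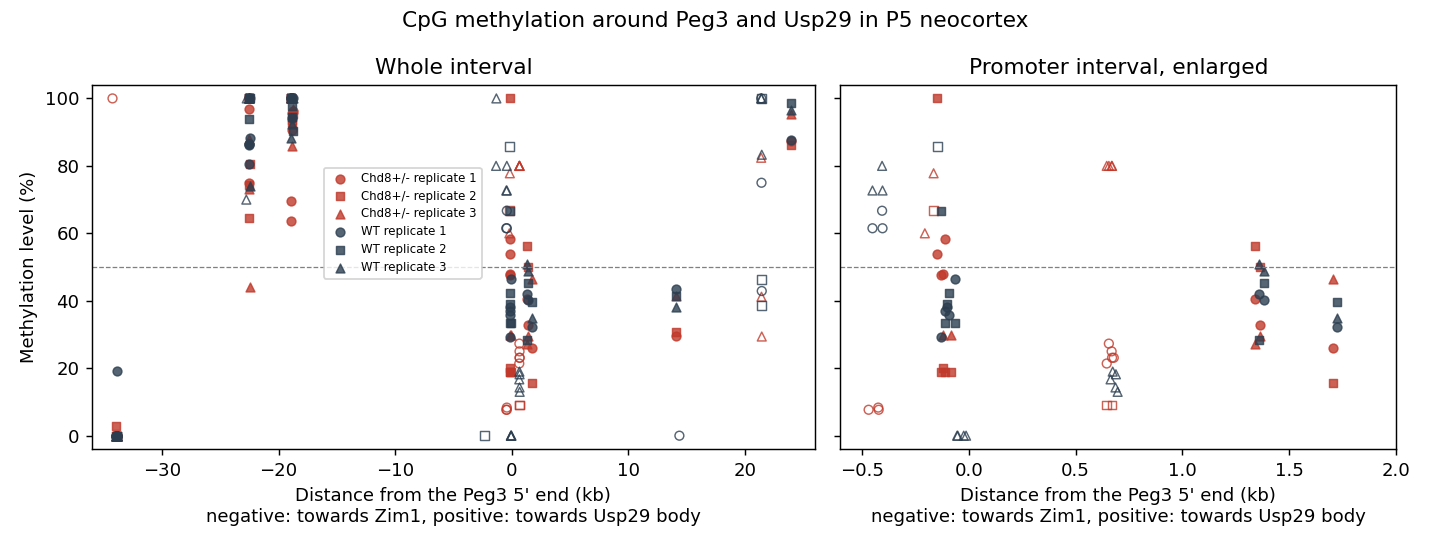
Methylation level in percent against distance from the approximate 5' end of Peg3 in kb, over the whole interval and enlarged around the promoter, with 1 point per CpG and sample, Chd8+/- in red and WT in dark blue. Filled points are the 28 CpGs that passed the rule, open points the 26 that did not, and the dashed line marks 50%. The promoter points scatter around 40%, between the 2 methylated groups on the Zim1 side and the CpG near 92% at the right.

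Over the 3 promoter CpGs read in all 6 samples the mean level was 33.0%, 40.6% and 34.4% in Chd8+/- replicates 1, 2 and 3, against 38.2%, 37.7% and 44.9% in WT replicates 1, 2 and 3. Over the 13 CpGs of the rest of the interval read in all 6 samples it was 85%, 86.0% and 86.5% in Chd8+/- and 88.7%, 93.5% and 91.5% in WT. The promoter was below its flanks in each sample, with differences of -45.4 to -55.8 points and a mean of -50.4 points (SD 3.86, n = 6, exact two-sided sign-flip permutation p = 0.031, the smallest that 6 samples allow). These flank CpGs leave out the Zim1 promoter, none of whose CpGs was read in all 6 samples and whose level lies below that of the promoter of Peg3 and Usp29. With all 20 flank members, each sample averaged over those it read, the difference was -22.3 points (SD 8.48, exact two-sided sign-flip permutation p = 0.031). The region was taken as an intermediate one, with earlier results of these data known. Both p-values therefore only describe it and are no independent support. The promoter mean over samples, 38.1% ± 4.27 (SD, n = 6), lay under 50%, and so did each sample. The name near-50% region therefore fits this stretch only loosely at the CpGs that were read.

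On the Peg3 side 5 members lay between positions 6733261 and 6733326, in 1 window of 500 bp (6733001 to 6733500). By the placement they lie 92 to 157 bp into Peg3. Reads pooled over the window were methylated at 50.7%, 34.6% and 30% in Chd8+/- replicates 1, 2 and 3, from 69, 78 and 20 reads. In WT they were methylated at 37.3% and 42.0% in replicates 1 and 2, from 217 and 193 reads, and WT replicate 3 listed none of these CpGs. Here, as in other pooled values, a read that covers several CpGs counts at each. The samples pool different CpGs: Chd8+/- replicate 3 listed only 6733289 and 6733326 of the 5, and Chd8+/- replicate 1 did not list 6733326. The groups overlapped, with Chd8+/- on both sides of WT. The group means were 38.4% ± 10.9 in Chd8+/- (SD, n = 3) and 39.6% ± 3.28 in WT (SD, n = 2), a difference of -1.20 points with a standard error of 6.70. Its sign rests on single libraries: without Chd8+/- replicate 3 it was 3.02 points, without WT replicate 2 it was 1.12 points and without Chd8+/- replicate 2 it was 0.714 points.

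The CpG at 6733289 was the only one of these 5 read in all 3 Chd8+/- samples. It stood at 47.8%, 20% and 30% in Chd8+/- replicates 1, 2 and 3, and at 38.2% and 39.1% in WT replicates 1 and 2. Its 95% Wilson interval ran from 7.05% to 45.2% in Chd8+/- replicate 2, with 15 reads, and from 26.5% to 51.4% in WT replicate 1, with 55 reads. Such intervals cover counting error only, and the sources used here do not say how PCR copies of a molecule were treated. The neighbouring CpGs at 6733278 and 6733299 averaged 34.2% and 38.8%, both with 2 samples of each genotype. At 6733278 the levels were 47.6% and 18.8% in Chd8+/- replicates 1 and 2 and 37.0% and 33.3% in WT replicates 1 and 2. At 6733299 they were 58.3% and 18.8% in the same Chd8+/- samples and 35.7% and 42.2% in the same WT samples. At both sites Chd8+/- replicate 1 was the highest and Chd8+/- replicate 2 the lowest.

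The CpG at 6733326 had the lowest mean of the promoter, 32.1%. It stood at 18.8% and 30% in Chd8+/- replicates 2 and 3 and at 46.4% and 33.3% in WT replicates 1 and 2, so that its groups did not overlap, with 10 to 28 reads per sample. The CpG at 6733261 had both the highest mean, 62.4%, and the largest difference between the genotypes, 29.0 points with a standard error of 29.7. That difference rests on single libraries: it was 5.93 points without Chd8+/- replicate 2, 10.3 points without WT replicate 1, 47.8 points without WT replicate 2 and 52.1 points without Chd8+/- replicate 1. It stood at 53.8% and 100% in Chd8+/- replicates 1 and 2 and at 29.2% and 66.7% in WT replicates 1 and 2. The high values rest on the reverse strand, which read 100% in Chd8+/- replicate 2 (15 reads) and in WT replicate 2 (10 reads), while the forward strand read 50% in WT replicate 2 (20 reads).

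**Figure D2:**
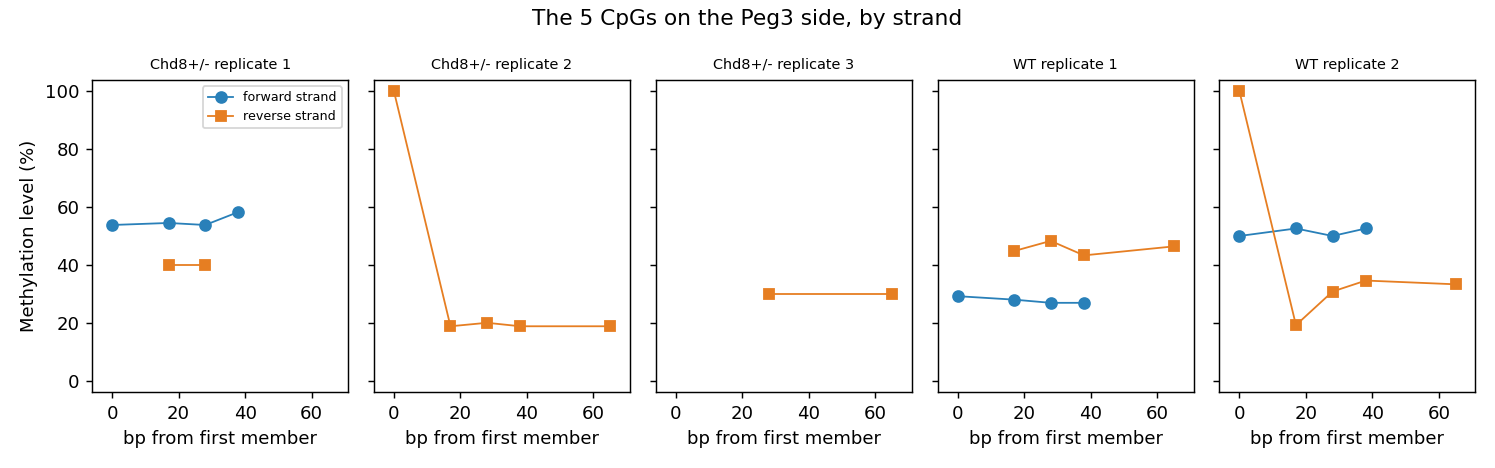
Methylation level in percent of the 5 members on the Peg3 side against their distance in bp from the first of them, 1 panel per sample, forward strand as blue circles and reverse strand as orange squares; WT replicate 3 listed none of them. From the second CpG on, the same strand gives nearly level lines, apart from the reverse strand of WT replicate 2 (19.2% to 34.6%), the lines of the strands lie apart, and the first CpG stands at 100% on the reverse strand in Chd8+/- replicate 2 and WT replicate 2.

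Neighbouring CpGs on the same strand of a library were mostly read at nearly the same level. From 6733278 to 6733326 the reverse strand of Chd8+/- replicate 2 gave 18.8% to 20% over 4 CpGs with 15 to 16 reads each. The forward strand of WT replicate 1 gave 26.9% to 28.0% over 3 CpGs, while its reverse strand gave 43.3% to 48.3% over 4. In WT replicate 2 the order of the strands was the other way round, with 50% to 52.6% forward and 19.2% to 34.6% reverse. Over the promoter members, neighbours within 30 bases on the same strand differed by a median of 2.63 points (27 pairs, at most 81.2 points), and the strands of the same CpG by a median of 16.8 points (13 pairs). Over all autosomal CpGs with a mean level of 30% to 70% these medians were 12.9 points (114322 pairs) and 21.4 points (59865 pairs). Close neighbours on the same strand can share reads and were not counted as separate measurements of a sample. This need not hold for all members of a cluster: 6734774 was listed on the forward strand alone and 6735113 on the reverse strand alone.

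On the Usp29 side the 3 members between 6734751 and 6735113 lie 1169 to 1531 bp into Usp29 by the placement, and all 6 samples read each of them. At 6734751 the level was 40.4%, 56.1% and 27.3% in Chd8+/- replicates 1, 2 and 3, against 42.1%, 28.3% and 51.0% in WT replicates 1, 2 and 3. The value of WT replicate 2 joins a forward strand at 41.9% (31 reads) and a reverse strand at 0% (15 reads). At 6734774, 23 bases on, the level was 32.7%, 50% and 29.5% in Chd8+/-, against 40.2%, 45.2% and 48.8% in WT. At 6735113 it was 26%, 15.7% and 46.5% in Chd8+/-, against 32.3%, 39.7% and 34.8% in WT. The groups overlapped at each site. Chd8+/- replicate 2 was the highest sample at the first and second sites and the lowest at the third, and Chd8+/- replicate 3 was the reverse. No library was thus the highest or the lowest throughout, though Chd8+/- replicate 1 was below WT replicate 3 at each site. Depth was 18 to 155 reads per sample. The 95% Wilson interval at 6735113 ran from 9.01% to 26% in Chd8+/- replicate 2, with 70 reads, and from 25.4% to 40% in WT replicate 1, with 155 reads.

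The CpG at 6747463, 13881 bp into Usp29 by the placement, was also intermediate. It stood at 29.6%, 30.6% and 41.4% in Chd8+/- replicates 1, 2 and 3 and at 43.4%, 41.3% and 38.2% in WT replicates 1, 2 and 3, with 36 to 89 reads. Group means were 33.8% ± 6.55 in Chd8+/- and 41.0% ± 2.62 in WT (SD, n = 3 each), a difference of -7.14 points with a standard error of 4.07, and the groups overlapped. Without Chd8+/- replicate 3 the difference was -10.9 points. No other member lies within several kb of it. The nearest listed CpG, at 6747797, missed the rule and was listed in WT replicate 1 alone, at 0% with 10 reads. Whether 6747463 marks a stretch or a single site was not tested.

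The borders of the intermediate stretch could be set only coarsely. Towards Zim1 the nearest member is at 6714608, 18653 bp from the first intermediate CpG, and the nearest window with at least 3 members, 6714501 to 6715000, was methylated at 94.2%, 93.8% and 94.3% in Chd8+/- replicates 1, 2 and 3 and at 98.1%, 94.1% and 97.4% in WT replicates 1, 2 and 3. Both groups were near full methylation there. In the other direction no window held 3 members. The last intermediate CpG of the promoter is at 6735113, 12350 bp before the CpG at 6747463, and 9923 bp beyond that one the CpG at 6757386 stood at 87.3%, 86.2% and 95.3% in Chd8+/- and 87.7%, 98.6% and 96.5% in WT. The intermediate promoter members thus lie between 6733261 and 6735113, and no member gives the level in the gaps on either side. Towards Zim1, the promoter interval also holds listed CpGs that missed the rule. At 6733245 the level was 66.7% and 77.8% in Chd8+/- replicates 2 and 3 and 85.7% in WT replicate 2, with 14 to 24 reads. It was 60% at 6733204 (Chd8+/- replicate 3 alone) and 0% at 6731042 (WT replicate 2 alone). At 6732065 and 6732089 it was 80% and 100% (WT replicate 3 alone). Those from 6732941 to 6732988 are given below. No member lies between 6733326 and 6734751, where both starts fall, so a continuous intermediate stretch is not shown. Listed CpGs there that missed the rule stood at 0% from 6733337 to 6733379, in WT replicate 3 alone. From 6734055 to 6734088 they stood at 9.09% to 27.3% in Chd8+/- replicates 1 and 2 and WT replicate 3, and at 80% in Chd8+/- replicate 3.

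Farther out, the 11 members of 2 clusters, 6710858 to 6710906 and 6714466 to 6714608, averaged 81.1% to 98.0%. At the Zim1 promoter, 5 of the 7 members were at 0% in each sample that read them. The summed reads there were methylated at 0%, 0.952% and 0% in Chd8+/- replicates 1, 2 and 3 and at 2.12%, 0% and 0% in WT replicates 1, 2 and 3. These sums count a read at each CpG it covers, so they hold fewer molecules than reads. The deepest single CpG of the cluster had 24 to 36 reads in each Chd8+/- sample and 26 to 45 in each WT sample, and 3 counts of that depth, the limit that a count of 0 allows, come to 10% to 12.5% in the 4 samples at 0%. The methylated reads of WT replicate 1 came from the CpG at 6699525, which stood at 19.2% there and at 0% in the other 4 samples that listed it.

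The comparison of the genotypes asks whether the imprinted mark differs when 1 copy of Chd8 is affected. Over the 3 promoter CpGs read in all samples the level was 36.0% ± 4.02 in Chd8+/- and 40.3% ± 4.0 in WT (SD, n = 3 each). The difference was -4.23 points with a standard error of 3.28, within the spread between samples (exact two-sided permutation p = 0.3, where the smallest possible is 0.1). The overlap depends on the averaging. With reads as weights each Chd8+/- sample was below each WT sample, with a difference of -6.59 points (SE 2.91, exact two-sided permutation p = 0.1). With the strands kept apart the difference was -6.23 points (exact two-sided permutation p = 0.2). The main difference was -1.93 points without WT replicate 3, -2.74 points without Chd8+/- replicate 1 and -6.52 points without Chd8+/- replicate 2. The flanks stood at 85.8% ± 0.781 in Chd8+/- and 91.2% ± 2.42 in WT (SD, n = 3 each), a difference of -5.43 points (SE 1.47). There each Chd8+/- sample was lower than each WT sample, and the exact two-sided permutation p was 0.1, the smallest it can be. With all 20 flank members, the Zim1 promoter included, the flank difference was -2.71 points (SE 6.34, exact permutation p = 0.5). Each sample was then averaged over the members it read. Of the 7 Zim1 CpGs near 0%, Chd8+/- replicate 2 read 3, WT replicate 2 read 4 and each other sample 7. The samples thus average different CpGs, so this value cannot tell whether the flank difference depends on the choice of members. Of the 13 CpGs behind the main value, 11 lie in the 2 clusters, so few fragments carry it.

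**Figure D3:**
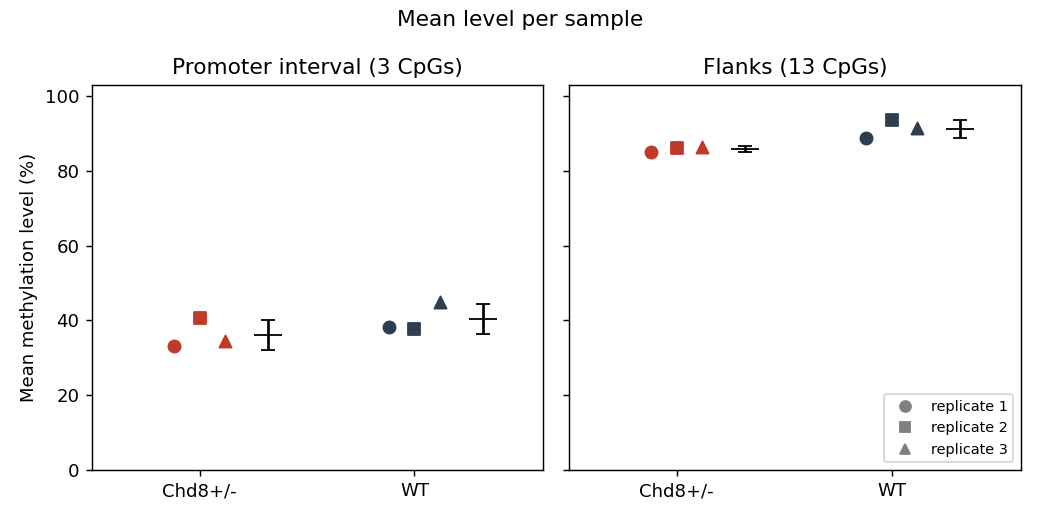
Mean methylation level in percent of each sample over the 3 promoter CpGs and the 13 flank CpGs read in all 6 samples, with group means and SD as bars beside the points (n = 3 each). In the promoter the Chd8+/- samples, 33.0% to 40.6%, overlap the WT samples, 37.7% to 44.9%; in the flanks the Chd8+/- samples, 85% to 86.5%, lie below the WT samples, 88.7% to 93.5%.

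No member was called between the genotypes. In edgeR's quasi-likelihood test, adjusted over all 609673 autosomal CpGs tested, 0 of the 23 members tested passed an adjusted p of 0.05, and 0% of all CpGs did; the other 5 members, of the Zim1 promoter, were at 0% in each sample and could not be tested. The lowest adjusted p among the members was 1.00. At an unadjusted p under 0.05 stood 1 of the 23 members, set against 3.02% of all CpGs. It was 6714587, at 90.0% ± 3.75 in Chd8+/- and 99.3% ± 1.19 in WT (SD, n = 3 each, edgeR unadjusted p = 0.00274). Its levels were 90.6%, 93.5% and 86.0% in Chd8+/- replicates 1, 2 and 3 and 100%, 97.9% and 100% in WT replicates 1, 2 and 3. Limma also called 0 CpGs.

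The groups did not overlap at 3 of the 23 members tested, 6710900, 6714587 and 6733326, compared with 9.99% of all CpGs tested. At each of the 3 every Chd8+/- sample lay below every WT sample that read it, as at 4.21% of all CpGs tested. The CpG at 6710900 stood at 75%, 74.2% and 73.1% in Chd8+/- and at 86.5%, 100% and 100% in WT. A lower mean in Chd8+/- was found at 16 members and a higher one at 7, with a median difference of -6.05 points over those tested, while 47.9% of all CpGs were lower and the median over all was 0.479 points. In the promoter 6 members were lower and 2 higher. Since close members can share reads, these counts describe the interval and are no test.

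Of the 6 windows of 500 bp with at least 3 members, 0 passed an adjusted edgeR p of 0.05 over 102748 windows, and 0% of all windows did. None had an unadjusted edgeR p under 0.05, which 3.51% of all windows had, and the lowest was 0.213, in the window 6714501 to 6715000. The promoter window 6733001 to 6733500 had an unadjusted p of 0.958. Limma called 0 windows. The groups overlapped in all 6 windows, while they did not overlap in 10.1% of all windows tested, with Chd8+/- below WT in 4.41%. The mean was lower in Chd8+/- in 5 of the 6 windows and in 47.2% of all windows.

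The spread between samples was set against the spread that the read counts alone would give. For the CpG at 6734774 the SD over the 6 samples was 8.47 points, 1.08 times the 7.83 points expected from its reads. At 6734751 and 6735113 the SDs were 11.7 and 10.8 points, 1.77 and 1.84 times those expected. At 6747463 the SD was 5.93 points, 0.924 times that expected. Over the 69754 autosomal CpGs read in all samples with a mean of 30% to 70%, the median SD was 17.1 points and the median ratio 2.23, with quartiles of 1.74 and 2.75. All 4 intermediate members read in all samples thus lay below both medians, and 97.8% of those CpGs had a higher SD than 6747463. SDs were not matched for depth. The 5 members on the Peg3 side, none read in all samples, are outside this comparison. Of these, 6733261 stood above both medians, with an SD of 29.5 points and a ratio of 2.57 over 4 samples. The others stood below both, at 10.5 to 16.4 points and ratios of 0.970 to 1.57. The members here lie close together or in the same gene and were not sampled at random, so this is a description.

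**Figure D4:**
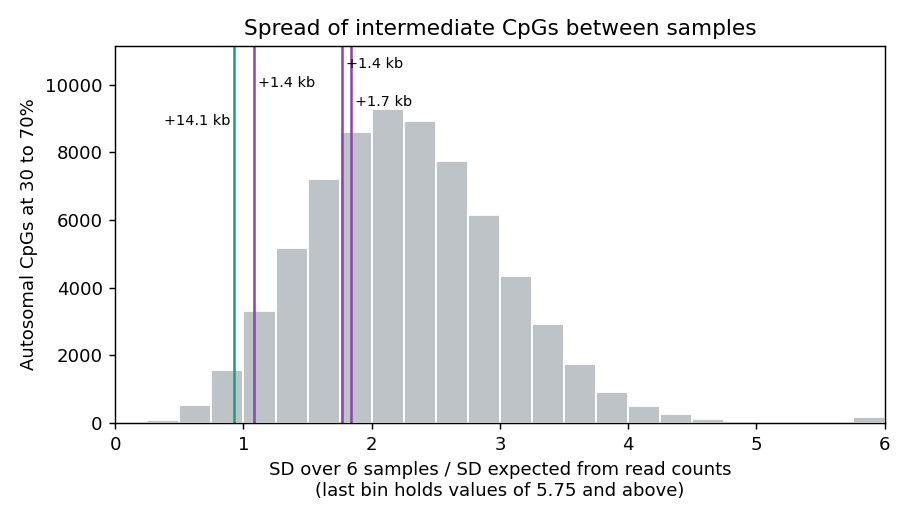
Number of autosomal CpGs with a mean level of 30% to 70% against the ratio of their SD over the 6 samples to the SD expected from their read counts. Vertical lines mark the 4 intermediate members read in all samples by their distance from the 5' end of Peg3, at ratios of 0.924 (the farthest), 1.08, 1.77 and 1.84, all left of the median of 2.23.

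Depth differed between the libraries. Coverage summed over listed cytosines was 32285980 to 39820333 in Chd8+/- and 45498222 to 54818138 in WT, and each Chd8+/- library was shallower than each WT library. Of the 28 members, 24 to 27 were read in each Chd8+/- library and 23 to 28 in each WT library. Replicate 3 of both genotypes had 2.56% and 2.58% of its coverage on chromosome X in Chd8+/- and WT, against 1.18% to 1.21% in the other libraries. Between the 4 libraries with the lower share the promoter difference was -1.13 points (2 samples each, exact permutation p = 1.00) and the flank difference -5.66 points (exact permutation p = 0.333, the smallest possible for 2 against 2). Between the 2 with the higher share they were -10.4 and -4.97 points, with 1 sample each and no test. The part of depth and of the chromosome X share in the genotype differences was not tested.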

How the data were processed

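Per the submitters' processing notes, reads went through Trim Galore 0.4.4, Bismark 0.20.0 and SAMtools 1.9 on build mm39; settings and deduplication are not given in the sources used here. The deposited tables give, per the file headers, the coverage of each CpG cytosine as a count of reads and the percent read as C or T. The lowest coverage listed was 10 reads, so a CpG may rest on 1 strand. Methylated reads were coverage times percent, rounded (whole within 0.02 for 99.96% to 99.97% of cytosines per library).

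Strands were merged, and levels per sample were unweighted means over CpGs read in all 6 samples; window levels pooled reads. Genotypes were compared by exact permutation tests and, over all autosomal CpGs and windows of 500 bp, by edgeR 4.0.16 in R 4.3.3 with Benjamini-Hochberg adjustment. The edgeR code was also run on simulated counts, with changes larger than the difference of any member. That run cannot tell whether differences as small as those of the members would be found. Features at 0% or 100% throughout were not tested. Alternatives were limma 3.58.1, Fisher's exact test, 20 reads, CpGs read in all samples, other windows, weights, strands apart, the replicate number as a block, samples left out and, chosen after the data were seen, chromosome X classes. Named windows were those with 3 or more CpGs at 30% to 70% and their nearest neighbours; named CpGs were the promoter's lowest, highest and most different and the outermost intermediate ones. Others named were chosen after their values were seen. The interval, members and lists were chosen with earlier results of these data known. The tables of RefSeq are of another build than mm39. Tables and permutation tests used scipy 1.17.1, numpy 2.4.6 and pandas 2.3.3 under Python 3.11.15, and plots matplotlib 3.10.9.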

Additional observations from a re-analysis of the deposited data

How the results depend on the processing

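The promoter was below the flanks under each alternative run: the difference of -50.4 points was -49.3 to -51.4 points with each sample left out (exact sign-flip p = 0.0625, the smallest that 5 samples allow), -50.9 points over the 4 libraries with the lower chromosome X share (p = 0.125, again the smallest), -49.3 points over the 2 with the higher share, and -22.3 points with all members, the unmethylated Zim1 promoter included. Those p-values only describe a region that was taken as an intermediate one. The genotype difference was below 0 under each alternative that gave one, and 3 samples a group cannot give an exact p under 0.1. With samples left out it was -1.93 to -6.52 points in the promoter and -4.28 to -6.69 points in the flanks. With reads as weights it was -6.59 points in the promoter and -3.37 points in the flanks (exact permutation p = 0.1 for both). It was -6.23 and -5.43 points with strands kept apart. That flank value is the main one unchanged, so keeping strands apart was no check of the flanks. With at least 20 reads it was -2.70 points over 2 promoter CpGs and -3.83 points over 5 flank CpGs. With all members, where samples average different CpGs, it was -3.25 and -2.71 points. The promoter window 6733001 to 6733500 ranged from -7.34 to 3.02 points, with a higher mean in Chd8+/- without Chd8+/- replicate 2 (0.714), Chd8+/- replicate 3 (3.02) or WT replicate 2 (1.12). When the reads of a genotype were pooled, so that samples no longer count as replicates, Fisher's exact test called 150974 CpGs and 32816 windows, against 0 and 0 with edgeR. With samples left out edgeR called 0 to 1 CpGs in the whole table, 1 without Chd8+/- replicate 1 and 1 without Chd8+/- replicate 3, and 0 windows. No promoter CpG was read in all samples within 1 kb of the 5' end, so that alternative gave no promoter value. With the replicate number as a block the promoter difference of -4.23 points had an exact sign-flip p of 0.5. The flank difference of -5.43 points had one of 0.25, and edgeR called 0 CpGs and 0 windows. Deviations of samples with the same number correlated at 0.000833 to 0.00456 across CpGs, and those with different numbers at -0.00662 to 0.00421. The numbers were not taken as pairs, but such values cannot tell whether samples of the same number share a litter or preparation. Depth was 10 to 56 reads per CpG and sample on the Peg3 side, 12 to 45 at the Zim1 promoter and 15 to 37 from 6710858 to 6710906.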

Other observations

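The 26 listed CpGs that missed the rule include 17 in the promoter interval. The values of those 17, here or above, and of some of the others are given without a comparison. From 6734055 to 6734088, 473 to 506 bp into Usp29 by the placement, the forward strand stood at 21.4% to 27.3% in Chd8+/- replicate 1 (5 CpGs), at 9.09% in Chd8+/- replicate 2 (2 CpGs), at 80% in Chd8+/- replicate 3 (4 CpGs) and at 13.0% to 19.0% in WT replicate 3 (5 CpGs), with 10 to 24 reads. From 6732941 to 6732988 it stood at 7.69% to 8.33% in Chd8+/- replicate 1, at 61.5% to 66.7% in WT replicate 1 and at 72.7% to 80% in WT replicate 3, with 10 to 13 reads. Within each of these blocks the CpGs of a library lay within 7.27 points of each other. The 4 CpGs in capitals in the Usp29 promoter sequence were listed in WT replicate 3 alone, with 10 reads and a level of 0% each.

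Far inside Usp29, the CpGs at 6754817, 6754842 and 6754865 were read in Chd8+/- replicate 3 and in the 3 WT samples. In Chd8+/- replicate 3 the levels were 82.4%, 41.2% and 29.4% in that order, and the WT means over 3 samples were 100%, 73.7% and 54.9%. Depth was 10 to 17 reads.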
